A study of Mus musculus with 8 samples.

Results

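Calcium enters a cell through voltage-gated channels and store-operated channels, is released from the endoplasmic reticulum through ryanodine and inositol trisphosphate (IP3) receptors, and is removed by pumps. The transcripts of these channels, stores and pumps were compared between dorsal root ganglia of wild-type mice and of mice with a trapped Tmem184b gene. The members were matched by gene name: the voltage-gated channel subunits (Cacna, Cacnb and Cacng), the ryanodine receptors (Ryr1 to Ryr3), the IP3 receptors (Itpr1 to Itpr3), the ATP-driven pumps (Atp2a, Atp2b and Atp2c), the store sensors Stim1 and Stim2, and the store-operated channels Orai1 to Orai3. These names matched 48 of the 40800 gene identifiers in the deposited table. They stood for 46 symbols, because Cacng6 and Cacng7 were each listed under 2 identifiers.

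Dorsal root ganglia hold the cell bodies of sensory neurons with their satellite glia, Schwann cells, vessels and connective tissue. One group was 4 wild-type C57BL/6 mice and the other was 4 mice homozygous for a Tmem184b gene trap on the C57BL/6 background, all 6 months old. The trap diverts splicing into an inserted cassette, and every cell of a homozygous animal carries it, so changes are not confined to the sensory neurons by design. The labels used here give no sex, litter or batch, and do not say whether the wild types were littermates or how many trapped lines there were. Samples are named by genotype and label number, wild types 1, 3, 4 and 8 and mutants 1, 2, 3 and 4.

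Voltage-gated calcium channels are built around a pore subunit that sets the class of current: P/Q, N, L and R types open at strong depolarisation, and T types near rest. Alpha2delta subunits, some of which bind gabapentin, and cytoplasmic beta subunits bring the pore to the membrane and set its gating. In sensory neurons the N-type channel drives transmitter release in the spinal cord, and T-type channels lower the firing threshold of some touch and pain neurons. Stores are filled by SERCA pumps and emptied by ryanodine and IP3 receptors. STIM proteins sense an empty store and open ORAI channels, while PMCA pumps expel calcium across the plasma membrane and SPCA pumps load the Golgi.

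Of the 48 members, 39 passed the filter on low values and were tested. Of these 39, 1 rose in the mutant (Itpr3, an IP3 receptor) and 2 fell (Cacna1c, an L-type pore subunit, and Cacnb3, a beta subunit). The test was limma on the deposited log2 CPM (reads scaled to library size, with a small prior added), with Benjamini-Hochberg adjustment over all 15030 tested genes and a call at an adjusted p under 0.05. The 3 calls are 7.69% of the tested members, beside 5.46% of all tested genes, 2.81% higher and 2.64% lower. The members' share of calls is near the background. With each sample centred on its median, the balance over all genes went from 423 higher and 397 lower to 204 and 706, and Cacna2d1 and Cacnb1 joined the members called lower. The voom test on recovered reads, added after the data were seen, called the same 3 members. Without the variance trend, limma called 67 genes higher and 75 lower, and 0 members. The limma adjusted p was then 0.0676 for Itpr3, 0.107 for Cacna1c and 0.113 for Cacnb3.

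The RefSeq promoter windows of the 3 called members are shown because they place the sequence next to the transcripts that changed. Each window runs from 250 bases before to 50 bases after a start site in GRCm38.p6, 5′ to 3′ on the gene's strand. Of the members, 35 symbols had 48 windows in the RefSeq table. Cacna1c had 3 windows, Cacnb3 had 2 and Itpr3 had 1, and for each gene the window with the most motif matches is printed. Itpr3 is at chr17:27057054-27057353, plus strand, Cacna1c at chr6:119108446-119108745, minus strand, and Cacnb3 at chr15:98634517-98634816, plus strand. Capitals mark matches to the motifs searched, on both strands. These were TATAAA (the TATA box), GGGCGG (the GC box), TGACGTCA (the cyclic AMP response element), CACGTG (an E-box), CAGCTG (another E-box) and TGACTCA (the AP-1 element).
Itpr3: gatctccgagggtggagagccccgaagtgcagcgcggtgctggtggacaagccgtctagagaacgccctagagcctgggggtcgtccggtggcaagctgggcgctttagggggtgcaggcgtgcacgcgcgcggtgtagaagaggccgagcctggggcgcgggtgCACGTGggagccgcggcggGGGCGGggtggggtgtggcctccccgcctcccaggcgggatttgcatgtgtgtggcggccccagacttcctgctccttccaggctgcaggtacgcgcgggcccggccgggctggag
Cacna1c: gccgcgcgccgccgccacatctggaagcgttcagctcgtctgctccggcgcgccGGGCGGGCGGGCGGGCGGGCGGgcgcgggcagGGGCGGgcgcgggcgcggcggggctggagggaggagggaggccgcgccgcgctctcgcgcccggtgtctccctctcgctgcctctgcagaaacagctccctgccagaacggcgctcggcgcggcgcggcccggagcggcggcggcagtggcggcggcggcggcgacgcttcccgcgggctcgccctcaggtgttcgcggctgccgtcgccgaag
Cacnb3: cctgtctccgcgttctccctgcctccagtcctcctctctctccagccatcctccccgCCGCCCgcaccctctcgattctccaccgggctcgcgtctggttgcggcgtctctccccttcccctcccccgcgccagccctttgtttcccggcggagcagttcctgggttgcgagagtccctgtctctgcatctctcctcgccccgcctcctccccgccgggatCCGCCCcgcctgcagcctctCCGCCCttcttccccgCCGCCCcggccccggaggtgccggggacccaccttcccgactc

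The Itpr3 window held 1 CACGTG, 85 bases before the start, and 1 GGGCGG, 66 bases before it. The Cacna1c window held 6 GGGCGG matches, some of them overlapping, and 57 CG pairs, and 81.3% of its bases were G or C. The Cacnb3 window held 4 matches to GGGCGG on the other strand, which appear as CCGCCC in the run shown. This motif, GGGCGG, occurred in 30 of the 48 members' windows (62.5%) and in 35.7% of all 32851 windows, whose median GC content was 52.7%. Among members' windows and all windows, the shares were 6.25% and 7.15% for CACGTG, 29.2% and 16.3% for CAGCTG, and 2.08% and 13.6% for TATAAA. They were 2.08% and 5.20% for TGACTCA, and 0% and 1.79% for TGACGTCA. The GC content of the members' windows as a set was not computed. Of the Cacna1c windows not printed, 1 held a CAGCTG and 1 held no match, and the other Cacnb3 window held 1 GGGCGG. These matches are letters in a window and say nothing of binding.

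Library totals were 6183618 to 7983821 reads. Tmem184b, the trapped gene, had 1086 to 1456 reads in wild-type ganglia, against 34 to 58 in the mutants, so the labels matched the transcript. Sensory neuron markers were abundant in all libraries, with a summed level of 10703 to 11565 CPM among the wild types, compared with 10157 to 10560 CPM in the mutants, and 2 of the 9 fell. Of neuron subtype markers, all 6 NP1 markers fell, from a summed 1280 to 1402 CPM to 708 to 1025 CPM, and all 6 NP3 markers fell, from 121 to 165 CPM to 30.6 to 37.9 CPM. NP1 and NP3 are classes of small sensory neurons for touch, pain and itch. Schwann cell markers had 2 of 6 higher, and satellite glia, macrophage, fibroblast and central nervous system markers each had 1 higher. Peptidergic neuron markers had 1 of 5 lower, and of 7 large neurofilament neuron and 4 C low-threshold mechanoreceptor markers tested, 0 were called by limma or voom, with 2 and 1 at an unadjusted p under 0.05. No list had a marker at 0 in all libraries. In bulk ganglia, fewer cells of a type and less RNA per cell cannot be told apart, and the part of these markers in the members' differences was not tested.

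Levels per kb of annotated exon ranked the members by transcript, and protein was not measured. The highest were Cacnb3 at 78.5 ± 7.89 CPM per kb and Atp2a2, the housekeeping SERCA pump, at 74.6 ± 4.02 CPM per kb (mean ± SD over all 8 samples), whose ranges over samples overlapped. A gap with no overlap separated them from Atp2b2, a PMCA pump, at 38.9 ± 2.11 CPM per kb, and Cacna1b, the N-type pore, at 34.2 ± 4.64 CPM per kb, which overlapped each other. Further such gaps followed Atp2b3, Atp2b1, Atp2b4 and Cacna1i, and all other neighbours in this order overlapped in range.

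**Figure D1:**
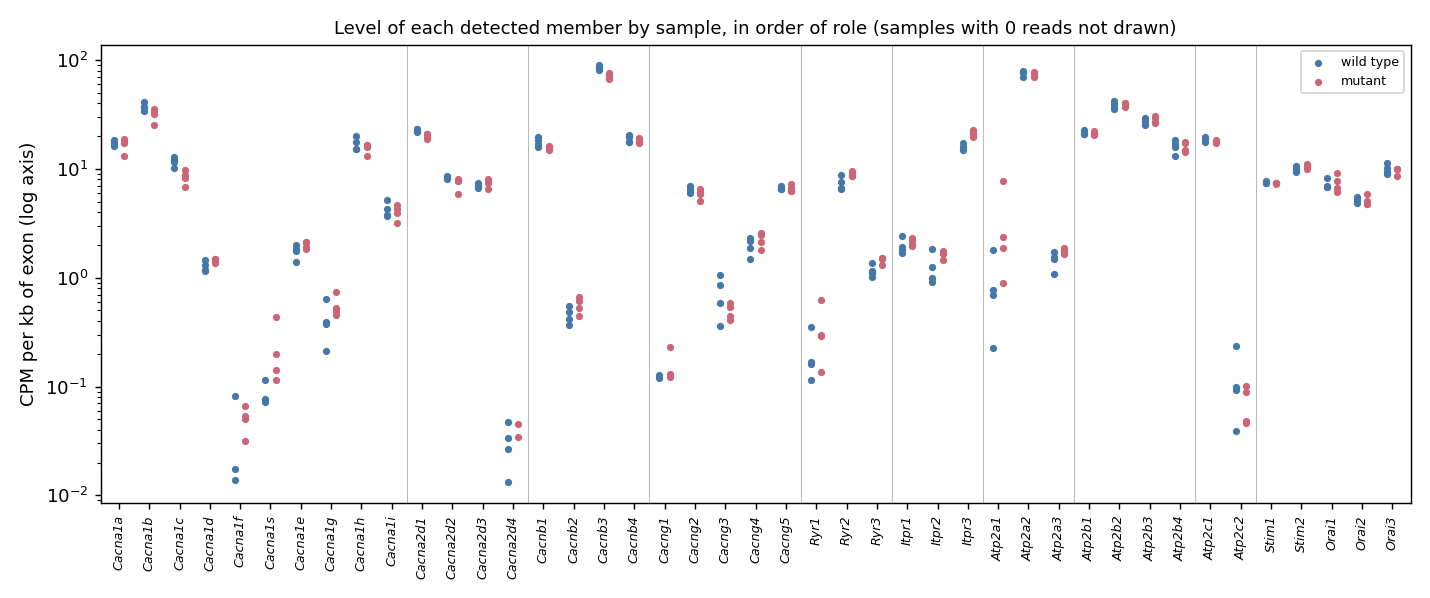
Level of each detected member in each sample, in CPM per kb of annotated exon on a log axis, with 4 wild types in blue and 4 mutants in red; vertical lines separate the roles. Cacnb3, Atp2a2, Atp2b2 and Cacna1b lead, and Atp2c2, Cacng1, Cacna1f and Cacna2d4 lie at the bottom.

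The most abundant member of each role was Cacna1b among pores, Cacna2d1 at 21.4 CPM per kb among alpha2delta subunits, Cacnb3 among beta subunits, and Cacng5 at 6.63 CPM per kb among gamma subunits, in the same range as Cacng2 at 6.15. Itpr3 at 18.3 CPM per kb led the IP3 receptors, far above Itpr1 at 2.05 and Itpr2 at 1.44. Ryr2 at 8.11 CPM per kb led the ryanodine receptors, and the levels of Stim2 and Orai3 were 10.3 and 9.77 CPM per kb. Exon length is that of all annotated exons in GENCODE M21, so the order depends on the annotation.

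The 9 members below the filter had few or 0 reads in both groups. Cacna1f, the retinal L-type pore, had 0 to 5 reads a library, Cacna2d4 had 0 to 3, Atp2c2 had 1 to 6, and Cacng1, the gamma subunit of skeletal muscle, had 0 to 2. The 5 identifiers of Cacng6, Cacng7 and Cacng8 had 0 reads in all 8 libraries. Whether the upstream counting could assign reads to these genes, some listed under duplicate identifiers, could not be seen. Their 0 reads therefore do not show absent transcripts. If reads could be assigned, 0 reads would allow up to 3 reads, or 0.485 CPM in the smallest library.

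Over the tested members, 20 were higher and 19 lower in the mutant at any size, with a median log2 difference of 0.00. Over all tested genes, 9684 were higher and 5346 lower, with a median of 0.07. The median absolute log2 difference was 0.18 for members and 0.14 for all genes. Groups did not overlap for 5 members (12.8%), 1 higher and 4 lower, beside 12.4% of all genes, 7.50% higher and 4.92% lower. An unadjusted p under 0.05 was seen for 11 members (28.2%), beside 21.3% of all genes.

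**Figure D2:**
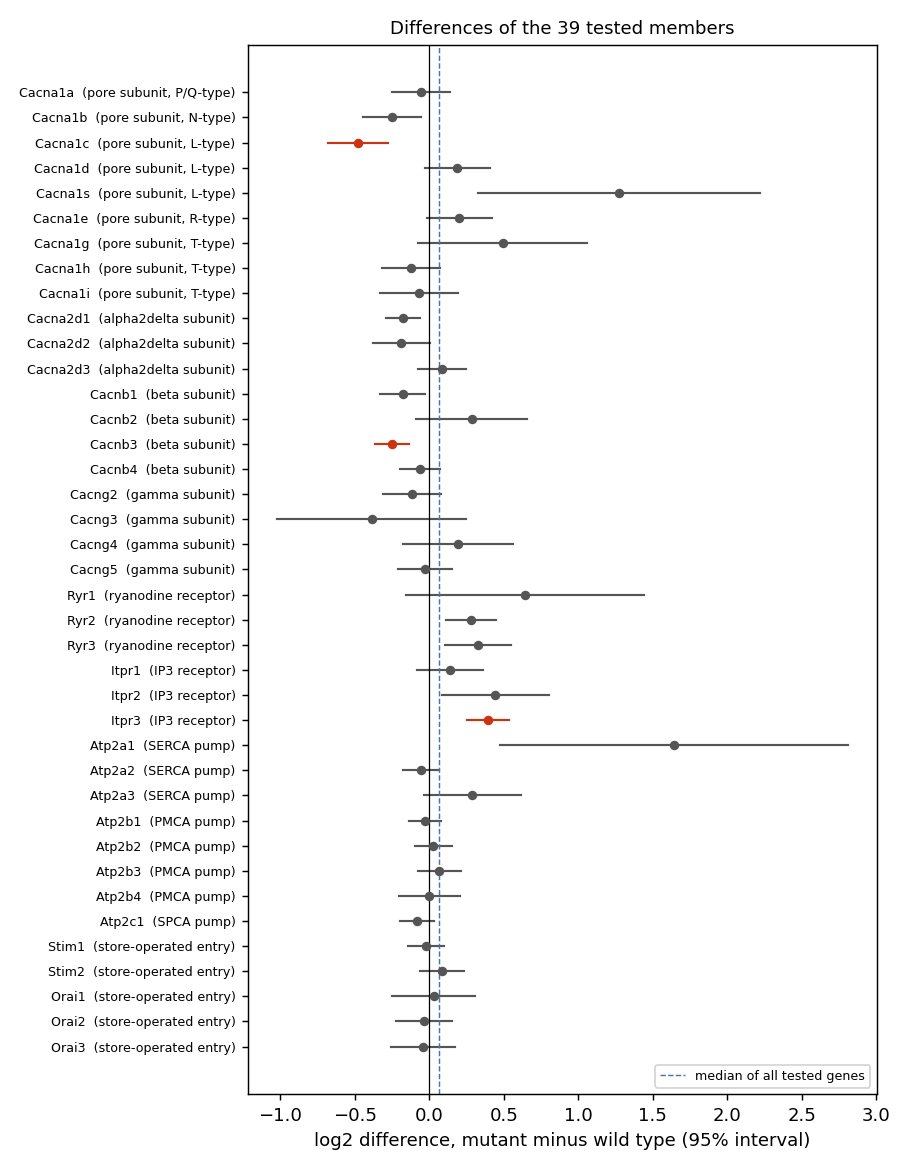
Log2 difference (mutant minus wild type) of each of the 39 tested members with its 95% interval, in order of role; red marks the 3 called members, the solid line is 0 and the dashed line is the median of all tested genes, 0.07. Itpr3 lies to the right and Cacna1c and Cacnb3 to the left. The differences of the PMCA pumps lie close to 0 and those of the release channels above it. The intervals of the release channels Ryr1 and Itpr1 reach below 0.

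Among the pore subunits, 1 of 9 tested fell and none rose, with a median log2 difference of -0.05. Cacna1c (ENSMUSG00000051331; chromosome 6, 118587240 to 119196418, minus strand, GRCm38) encodes the L-type pore that carries calcium signals to the nucleus and is also the main channel of heart and smooth muscle. Its log2 CPM was 8.08, 8.0, 7.93 and 7.75 in wild types 1, 3, 4 and 8, against 7.44, 7.53, 7.69 and 7.19 in mutants 1, 2, 3 and 4. All 4 mutants lay below all 4 wild types, with the closest pair mutant 3 and wild type 8. The log2 difference was -0.48 (SE 0.094, 95% interval -0.68 to -0.28; limma adjusted p = 0.00994; exact two-sided permutation p = 0.0286, the lowest reachable with 4 and 4 samples). The mean went from 246 ± 23.7 to 177 ± 25.3 CPM (SD, n = 4), which is 72.1% of wild type. Cacna1c was called in 21 of 22 alternatives. Without the variance trend its adjusted p was 0.107. Counts out of 22 alternatives, here and below, include the looser threshold of 0.1, which could not remove a call.

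Cacna1b, the N-type pore, had log2 CPM of 8.66, 8.51, 8.52 and 8.39 in wild-type ganglia, against 8.30, 8.38, 8.47 and 7.96 in the mutants. The groups overlapped between wild type 8 and mutant 3. The log2 difference was -0.25 (SE 0.092; limma adjusted p = 0.130), not a call. With each sample's trend with GC content and exon length removed, an alternative chosen after the data were seen, its adjusted p was 0.0461. Without mutant 4 the log2 difference was -0.14, and the adjusted p was 0.322 without wild type 1 and 0.30 without the variance trend.

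Of the remaining pores, the P/Q-type Cacna1a differed by -0.05 (95% interval -0.25 to 0.14) and the T-type Cacna1h, a target of pain research in sensory neurons, by -0.12 (-0.32 to 0.07). The L-type Cacna1d, which opens at weaker depolarisation than Cacna1c, differed by 0.19 (-0.03 to 0.41), and the R-type Cacna1e by 0.20 (-0.02 to 0.42). Cacna1g and Cacna1i, the other T-type pores, differed by 0.49 (-0.07 to 1.06) and -0.07 (-0.33 to 0.19). None of these passed the test, their intervals reach below and above 0, and Cacna1a and Cacna1i changed sign without mutant 4 (0.06 and 0.04), Cacna1i also without wild type 1 (0.03). Without wild type 8, Cacna1e differed by 0.09 and Cacna1g by 0.24. Cacna1h differed by -0.05 without mutant 4 and by -0.04 without wild type 1. Cacna1i lies 0.884 Mb from Tmem184b and Cacng2 1.24 Mb, while Cacnb3 is on the same chromosome at 19.2 Mb.

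The high-voltage pores differed in their shares of the family's sum, which was 69.2 ± 4.99 CPM per kb among the wild types, compared with 60.4 ± 8.25 in the mutants. Cacna1c made up 17.0%, 17.4%, 16.5% and 16.1% of this sum in wild-type ganglia, against 13.5%, 13.4%, 14.4% and 14.1% in the mutants. Cacna1a made up 25.2 ± 0.74% among the wild types, compared with 28.0 ± 0.91% in the mutants, and Cacna1b 53.5 ± 0.55% and 51.9 ± 0.58%. Cacna1d and Cacna1e were small parts, 1.84% and 2.52% in wild-type ganglia, against 2.42% and 3.33% in the mutants. The groups overlapped in none of these 5 shares. In log2 CPM, the groups of Cacna1a, Cacna1b, Cacna1d and Cacna1e overlapped, and those of Cacna1c did not. Because the 5 shares have a common sum, they are not 5 separate results. Shares sum to 100, so they do not move independently, and they are given without a test.

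The alpha2delta subunits had 0 calls among 3 tested by limma or voom, with 1 unadjusted p under 0.05 (Cacna2d1). Cacna2d1, a gabapentin-binding subunit, had log2 CPM of 8.07, 8.19, 8.12 and 8.18 among the wild types, compared with 7.88, 8.02, 7.95 and 8.01 in the mutants. No mutant reached the lowest wild type. The log2 difference was -0.18 (SE 0.053; limma adjusted p = 0.0710; exact permutation p = 0.0286), and it was called with median centring (adjusted p = 0.0193) and with the GC trend removed (adjusted p = 0.00906). Cacna2d2 also did not overlap, at 6.08, 6.00, 6.04 and 6.09 against 5.95, 5.96, 5.99 and 5.56. Its log2 difference was -0.19 (SE 0.088; limma adjusted p = 0.24), and mutant 4 stood apart from the other mutants. Without mutant 4 it was -0.08, with an adjusted p of 0.542. Cacna2d3 differed by 0.08 (95% interval -0.08 to 0.25). The alpha2delta subunits summed to 38.0 ± 0.85 CPM per kb in wild-type ganglia, against 34.9 ± 0.38 in the mutants.

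Of the 4 beta subunits, 1 fell. Cacnb3 (ENSMUSG00000003352; chromosome 15, 98630840 to 98644529, plus strand, GRCm38) is the most abundant of them and a partner of N-type channels in neurons. Its log2 CPM was 8.45, 8.48, 8.35 and 8.40 in wild-type ganglia, against 8.20, 8.24, 8.16 and 8.08 in the mutants. The lowest wild type stood above the highest mutant by a small gap. The log2 difference was -0.25 (SE 0.054, 95% interval -0.36 to -0.13; limma adjusted p = 0.0160; exact permutation p = 0.0286), from 342 ± 13.7 to 288 ± 13.8 CPM (SD, n = 4), 84.2% of the wild-type level. Cacnb3 was called in 19 of 22 alternatives. Its adjusted p was 0.113 without the variance trend, 0.0571 without wild type 1 and 0.0520 without wild type 3.

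Cacnb3 made up 69.7 ± 1.71% of the beta subunit sum among the wild types, compared with 67.7 ± 1.2% in the mutants. The sum itself was 122 ± 3.39 CPM per kb in wild-type ganglia, against 106 ± 3.67 in the mutants. Cacnb1, the beta subunit of skeletal muscle and also of neurons, had 6.19, 6.27, 6.46 and 6.39 against 6.17, 6.16, 6.21 and 6.07, a log2 difference of -0.18 (SE 0.071; limma adjusted p = 0.162), called only with median centring (adjusted p = 0.0418). Cacnb2 differed by 0.28 and Cacnb4 by -0.06, with no call.

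Of the 10 gamma identifiers, 4 were tested, with 0 calls by limma or voom and 0 unadjusted p under 0.05. They were Cacng2, Cacng3, Cacng4 and Cacng5. Cacng2 (stargazin, which escorts AMPA receptors) differed by -0.11 (95% interval -0.31 to 0.08), and the 4 ranged from -0.39 to 0.20.

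The release channels were higher in the mutant in all 6 members at any size, with a median log2 difference of 0.36, and 1 of the 6 rose. Of all tested genes, 9684 of 15030 were higher at any size. All 6 channels kept this sign with median centring, quantile normalization, the GC and length trends removed, voom, and each sample left out in turn, and the lowest difference was 0.05, for Itpr1 with median centring. The largest of the 6 differences, 0.64 for Ryr1, was 0.29 without mutant 4, the library with the most skeletal muscle marker reads, whose part was not tested. Itpr3 (ENSMUSG00000042644; chromosome 17, 27057304 to 27122223, plus strand, GRCm38) encodes an IP3 receptor that releases stored calcium after activation of phospholipase C. Its log2 CPM was 7.16, 7.08, 7.29 and 7.10 among the wild types, compared with 7.68, 7.46, 7.59 and 7.49 in the mutants. Every mutant lay above every wild type, with 902 to 1086 reads in wild-type ganglia, against 1087 to 1370 in the mutants. On the log2 scale the difference was 0.40 (SE 0.065, 95% interval 0.26 to 0.53; limma adjusted p = 0.00346; exact permutation p = 0.0286), from 143 ± 9.68 to 188 ± 13.0 CPM (SD, n = 4), or 132% of the wild-type level. Itpr3 was called in 21 of 22 alternatives. Without the variance trend its adjusted p was 0.0676. An antisense gene, Itpr3os, shares 233 exon bases with Itpr3 and had 0 to 4 reads a library.

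**Figure D3:**
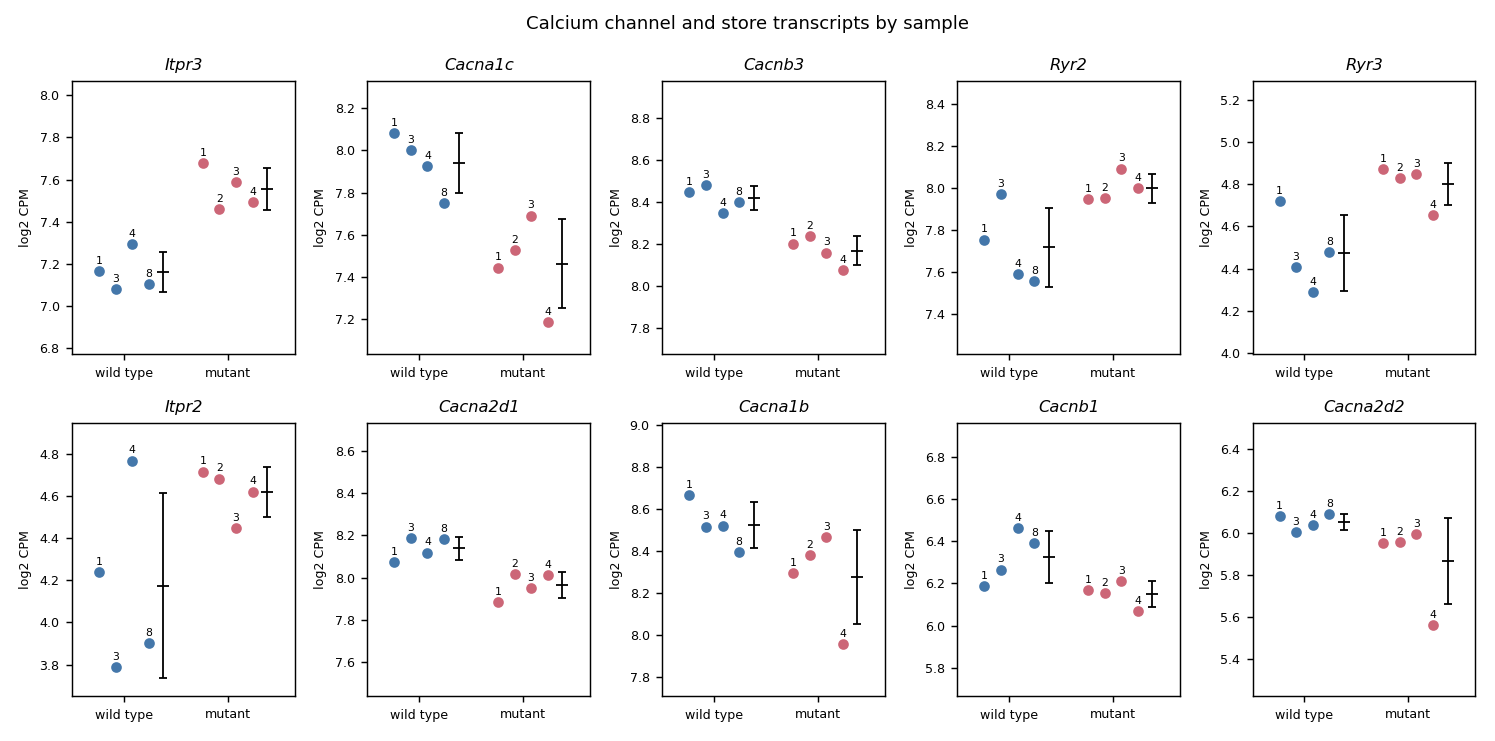
Log2 CPM of 10 members in each sample, labelled by sample number, with the group mean and SD (black). Itpr3 is higher in all 4 mutants, Cacna1c, Cacnb3, Cacna2d1 and Cacna2d2 are lower in all 4, and the 5 others overlap between the groups.

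Ryr2, the ryanodine receptor of heart and neurons, had log2 CPM of 7.75, 7.97, 7.59 and 7.56 among the wild types, compared with 7.95, 7.95, 8.09 and 8.0 in the mutants. Wild type 3 lay within the mutants' range. Mutant minus wild type was 0.28 (SE 0.079; limma adjusted p = 0.0542), just outside the threshold, from 212 ± 28.3 to 255 ± 12.1 CPM. Ryr2 was called with quantile normalization (adjusted p = 0.0287), the robust variance trend (0.0443), Xist as a covariate (0.0481) and without wild type 3 (0.0110). With median centring its adjusted p was 0.279.

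Ryr3, the ryanodine receptor found at low level in many tissues, had 4.72, 4.41, 4.29 and 4.48 against 4.87, 4.83, 4.85 and 4.65. Mutant 4 lay below wild type 1. The groups differed by 0.33 (SE 0.103; limma adjusted p = 0.0782), and without wild type 1 the adjusted p was 0.0452. Itpr2, an IP3 receptor of glia and other cells, had 4.24, 3.79, 4.77 and 3.90 against 4.72, 4.68, 4.45 and 4.62. Wild type 4 was the highest sample of all 8. On the log2 scale the difference was 0.44 (SE 0.168; limma adjusted p = 0.141), and without wild type 4 it was 0.64 with an adjusted p of 0.00857. Itpr1, the main IP3 receptor of brain, differed by 0.14 (95% interval -0.08 to 0.36).

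The IP3 receptors summed to 19.1 ± 1.80 CPM per kb in wild-type ganglia, against 24.6 ± 1.54 in the mutants, and Itpr3 was 83.3% and 84.6% of these sums. The ryanodine receptors summed to 8.71 ± 1.11 CPM per kb among the wild types, compared with 10.7 ± 0.46 in the mutants, with Ryr2 at 84.3% and 83.2%. Both leading receptors held nearly the same share of their family in the 2 groups. These sums and shares carry no test. Itpr1 was 10.2 ± 0.72% of the IP3 receptors in wild-type ganglia, against 8.71 ± 0.61% in the mutants.

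Pumps had 0 calls among 8 tested by limma and 0 by voom, with 1 unadjusted p under 0.05 (Atp2a1). The 4 PMCA pumps differed by -0.03 to 0.07, with intervals of -0.13 to 0.08 for Atp2b1, -0.10 to 0.15 for Atp2b2, -0.07 to 0.21 for Atp2b3 and -0.20 to 0.20 for Atp2b4. Atp2a2 differed by -0.05 (-0.18 to 0.07), Atp2a3 by 0.29 (-0.04 to 0.62; 0.16 without wild type 8) and the Golgi pump Atp2c1 by -0.08 (-0.19 to 0.03). The SERCA sum was 78.4 ± 4.57 CPM per kb among the wild types, compared with 78.2 ± 2.48 in the mutants. Within it, Atp2a2 had means of 76.1 and 73.2, Atp2a3 1.45 and 1.76, and Atp2a1 0.87 and 3.22 CPM per kb. Atp2a1 made up 9.80% of the SERCA sum in mutant 4. The PMCA sum was 103 ± 5.19 CPM per kb among the wild types and 105 ± 3.65 in the mutants. Store-operated entry had 0 calls among 5 tested by limma or voom and 0 unadjusted p under 0.05, with differences from -0.04 to 0.08, and Stim1 had an interval of -0.14 to 0.10. All 4 PMCA pumps, Atp2a2, Stim2 and the 3 ORAI channels changed sign in at least 1 alternative. A p above the threshold does not show that these levels are equal.

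Atp2a1, Cacna1s and Ryr1, which skeletal muscle makes in quantity, were each highest in mutant 4, the library with the most muscle marker reads. Atp2a1, the SERCA pump of fast muscle, had 5, 50, 18 and 19 reads in wild types 1, 3, 4 and 8 and 21, 51, 42 and 188 in mutants 1, 2, 3 and 4. Mutant 4 stood far above the others. Mutant minus wild type was 1.64 (SE 0.547; limma adjusted p = 0.0953), and 1.09 without mutant 4. Cacna1s, the L-type pore of skeletal muscle, had 3, 4, 0 and 6 reads against 5, 8, 6 and 20 (log2 difference 1.27; adjusted p = 0.112). Ryr1, the release channel of skeletal muscle, had 23, 62, 17 and 28 reads against 20, 40, 41 and 95 (0.64; adjusted p = 0.345). Of 15 skeletal muscle markers, the summed level of 14, without Pvalb, which large sensory neurons also make, was 22.5, 124, 60.9 and 64.2 CPM in wild-type ganglia, against 50.2, 147, 138 and 413 CPM in the mutants, and their part in these 3 members' differences was not tested. All 11 tested genes of the full muscle list, Pvalb among them, were higher at any size, 0 were called by limma or voom, and 9 had an unadjusted p under 0.05.

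**Figure D4:**
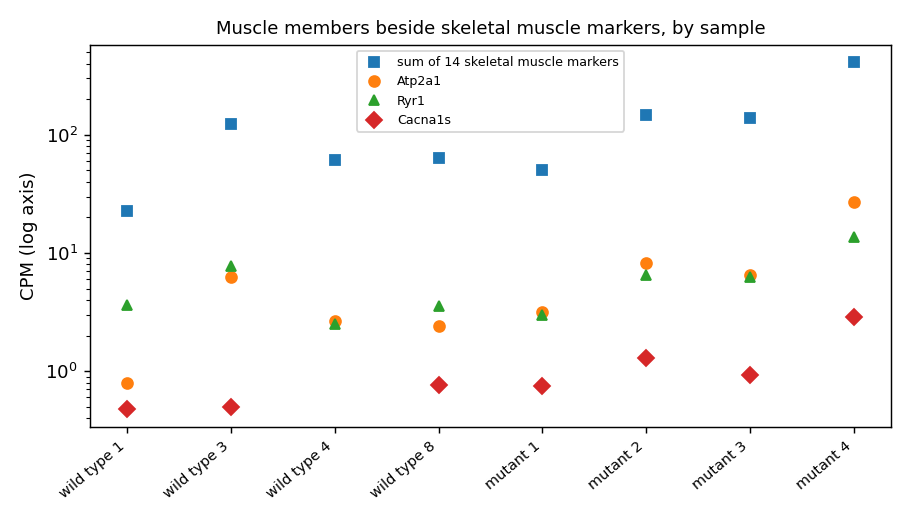
CPM on a log axis of Atp2a1, Ryr1 and Cacna1s in each sample beside the summed level of 14 skeletal muscle markers; Cacna1s in wild type 4 had 0 reads and is not drawn. Wild type 1 has the lowest marker sum and mutant 4 the highest, and Atp2a1 follows the same order at these ends.

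Libraries differed in the pore subunits within each group. Mutant 4 was the lowest of its group for 7 of 9 tested pores and 17 of 39 members, beside 22.4% of all genes, and the median pore was 0.30 below the other mutants (log2 difference of -0.30). Wild type 8 was the lowest of its group for 6 of 9 pores and 15 of 39 members, beside 24.7% of all genes, with a median pore of -0.20. The same 2 libraries were low for 191 long, GC-rich genes, at -0.17 and -0.12. Without mutant 4, Itpr3, Cacna1c and Cacnb3 were each still called, at log2 differences of 0.42, -0.39 and -0.22, and with the trends with GC content and exon length removed at 0.37, -0.53 and -0.31.

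The other genes of the pathway were given by 6 lists of 86 genes, of which 75 were tested: 2 rose and 5 fell, beside 2.81% of all tested genes called higher and 2.64% called lower. Of exchangers (8 tested), mitochondrial uptake genes (7) and endolysosomal release genes (3), 0 were called by limma or voom, and 2, 1 and 0 had an unadjusted p under 0.05. Of channel regulators, 1 rose and 1 fell of 11, and of store and release regulators, 1 rose of 22. Calmodulin and its effectors had 4 that fell and none that rose among 24 tested, against the same background of 2.64% called lower.

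Camk2a, a calcium and calmodulin-dependent kinase of neurons, had log2 CPM of 8.18, 8.10, 8.11 and 8.17 among the wild types, compared with 7.31, 7.43, 7.49 and 6.80 in the mutants. The groups were far apart, and mutant 4 was lowest. The groups differed by -0.89 (SE 0.112, limma adjusted p = 0.000638), and the mean went from 282 ± 7.99 to 155 ± 30.9 CPM (SD, n = 4). Its relatives Camk2b, Camk2d and Camk2g differed by 0.10, -0.07 and 0.07, with no call. Camk4, a kinase that acts in the nucleus, had 5.80, 5.67, 5.73 and 5.82 against 5.38, 5.16, 5.18 and 5.31, and fell by 0.50 on the log2 scale (SE 0.075; adjusted p = 0.00194).

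Rcan1 and Rcan3 encode regulators of calcineurin, the calcium-activated phosphatase. Rcan1 had 5.93, 5.88, 5.92 and 6.01 against 5.57, 5.73, 5.63 and 5.56, and fell by 0.31 (SE 0.067; limma adjusted p = 0.0152). Rcan3 had 7.0, 6.83, 7.07 and 6.85 against 6.36, 6.48, 6.54 and 6.43, and fell by 0.48 (SE 0.068; limma adjusted p = 0.00134). The groups of both genes were separate. The calcineurin subunits themselves (Ppp3ca, Ppp3cb, Ppp3cc and Ppp3r1) and the NFAT factors (Nfatc1 to Nfatc4) had no call. Rcan1 had an adjusted p of 0.0742 without the variance trend and 0.0549 with a replicate block.

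Stac, an adaptor that binds L-type channels, had 6.20, 5.89, 5.89 and 6.06 against 5.61, 5.58, 5.48 and 5.39, and fell by 0.49 (SE 0.083; limma adjusted p = 0.00393). Each mutant lay below each wild type. Fam155a, a subunit of the sodium leak channel complex, had 4.59, 4.83, 4.55 and 4.77 against 5.08, 4.99, 4.95 and 5.08, a rise of 0.34 (SE 0.088; limma adjusted p = 0.0382). Ahcyl2, related to a regulator of IP3 receptors, had 7.18, 7.28, 7.18 and 7.09 against 7.54, 7.48, 7.24 and 7.63, a rise of 0.29 (SE 0.076; limma adjusted p = 0.0417). The Ahcyl2 groups overlapped at mutant 3 and wild type 3. Fam155a was called in 9 and Ahcyl2 in 8 of 22 alternatives, with adjusted p of 0.151 and 0.176 with median centring.

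**Figure D5:**
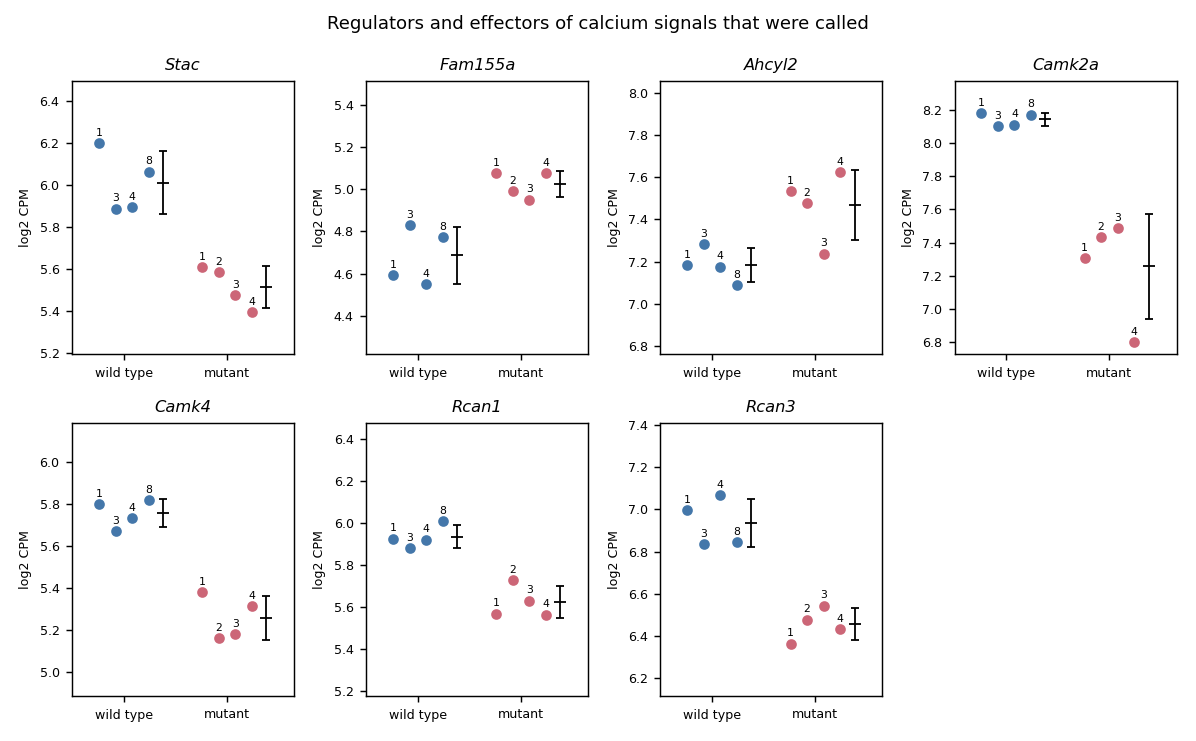
Log2 CPM of the 7 called regulators and effectors in each sample, with the group mean and SD (black). Camk2a shows the widest separation, Camk4, Rcan1, Rcan3 and Stac are lower in all 4 mutants, Fam155a is higher in all 4, and the Ahcyl2 groups overlap.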

How the data were processed

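Total RNA of dorsal root ganglia was sequenced in 4 wild-type and 4 Tmem184b gene-trap mice. One deposited table held log2 CPM per Ensembl gene, moderated by a small prior, and a GC percent for each gene. The submitters' processing notes name Salmon 0.11.1, DESeq2 and mm9, with no role or order. Strand use in counting is not given in the sources used here. All values shared a floor of -1.79. With the floor removed, 100.0% of values were whole reads (tolerance 0.05 read), with a mean prior of 2 reads. One read was worth 0.125 to 0.162 CPM.

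Genes with log2 CPM above 0 in at least 4 of 8 samples (15030) were fitted with limma 3.58.1 (lmFit, eBayes with a mean-variance trend; R 4.3.3), two-sided, without covariates. Differences are on the moderated log2 scale and understate those of low genes. Single values had an exact permutation test over 70 assignments. Python 3.11.15 (scipy 1.17.1, pandas 2.3.3, numpy 2.4.6, matplotlib 3.10.9) made tables and plots.

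The members and gene lists were chosen with earlier results of these data known. Members called, members with an unadjusted p under 0.05 and those with samples apart are given per sample, and other pathway genes where called. Coordinates and exon lengths are those of GRCm38 in GENCODE M21, found by identifier for 46 of 48 members and 40340 of 40800 identifiers, and are not the authors' build. Itpr3, Atp2a1, Ryr1 and Cacna1s are among the members that share exon bases with a gene on the other strand, whose reads cannot be told apart without strand. Each sample is 1 mouse per the series' design. Reads are not independent molecules, so the floor of 3 reads covers counting error alone. Column names carry running numbers of unstated meaning, consecutive in mutants alone, and a batch in them cannot be told apart from genotype. Alternatives changed the filter, the added constant, the scaling, the variance model, a covariate, the threshold, the samples and a replicate block, and added later were voom and removal of GC and length trends. The procedure was run on simulated data with the same dispersion set for all genes, which does not test the single calls reported here.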

Additional observations from a re-analysis of the deposited data

Results flagged for a closer look

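In 4 of 78 groups of 4 samples, 1 sample stood far from the other 3; chance gives about 3.9. Cacna1h was 7.02 log2 CPM in mutant 4 and 7.28 to 7.33 in the other mutants. Cacna2d2 was 5.56 in mutant 4 and 5.95 to 5.99 in the others. Orai1 was 4.27 in wild type 8 and 3.99 to 4.02 in the others. Orai3 was 4.23 in mutant 3 and 4.43 to 4.44 in the others. The causes were not tested.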

How the results depend on the processing

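With all 8 samples, 423 genes were higher and 397 lower, and 1 member was higher and 2 lower. Median centring gave 204 and 706 genes, 4 members lower, a members' median of -0.0921 and a median over all genes of -0.0261. Quantile normalization gave 271 genes higher, 2 members higher and a median over all genes of 0.0030. Without the variance trend 67 and 75 genes were called and no member (0 higher and 0 lower). The robust trend and Xist as a covariate each gave 2 members higher. At an adjusted p under 0.1 there were 876 and 612 genes and 4 members higher. Removal of the GC trend gave 257 and 604 genes, 3 members lower, a members' median of -0.0455 and a median over all genes of 0.0050. Removal of the GC and length trends gave 261 and 797 genes, 4 members lower, a members' median of -0.0517 and a median over all genes of -0.0171. The replicate block over 6 samples gave 326 and 345 genes and left the members' calls at 1 and 2, against 180 and 267 genes without the block; of the named genes, the block moved Rcan1 to 0.0549. Same-numbered samples of the 2 genotypes (numbers 1, 3 and 4) had deviations correlated at 0.08, 0.04 and 0.06, so the numbers were not taken as pairs. Leaving out each sample gave 1 to 2 members higher, 1 to 2 lower, 174 to 572 genes higher, 230 to 427 lower, a members' median of -0.0273 to 0.0380 and a median over all genes of 0.0497 to 0.0769. The libraries whose removal moved the number of higher genes by over 1.5 times were wild types 1 (174) and 3 (226) and mutants 1 (183), 2 (266) and 4 (206), and for lower genes wild type 1 (230). Voom on recovered reads, chosen after the data were seen, gave 419 and 399 genes. The planned edgeR fit was not run because the deposited values are logarithms. No called gene changed sign in an alternative. Among uncalled members, values of the opposite sign were seen with median centring for Cacna2d3 (-0.00883), Atp2b2 (-0.0640), Atp2b3 (-0.0233), Atp2b4 (-0.0921), Stim2 (-0.00870) and Orai1 (-0.0612), with quantile normalization for Atp2a2 (0.0129), Atp2b1 (0.0118) and Orai1 (-0.0637), with and without the replicate block in 6 samples for Atp2b4 (-0.141) and Orai2 (0.0159), with the GC trend removed for Atp2b2 (-0.0194), Atp2b4 (-0.0455) and Orai1 (-0.0165), and with the GC and length trends removed for Atp2b2 (-0.00496), Atp2b3 (-0.00191), Atp2b4 (-0.0419), Stim2 (-0.0219) and Orai1 (-0.0517). Leaving out each sample spanned 0 for Cacna1a (-0.110 to 0.0581), Cacna1i (-0.139 to 0.0407), Atp2b2 (-0.00706 to 0.0711), Atp2b4 (-0.0908 to 0.0674), Orai1 (-0.0753 to 0.116) and Orai3 (-0.0885 to 0.0170). The cause of these changes was not tested. Depth limits the members below the filter, at 0 to 6 reads. For Cacng6, Cacng7 and Cacng8, whether reads could be assigned at all could not be seen.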
